A study of Rattus norvegicus with 30 samples.

Results

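Nerve tissue taken 21 days after a delayed repair was compared with tissue taken 14 days after the same repair, gene by gene, in a bulk RNA sequencing series of regenerating rat median nerve, which runs in the forelimb. The comparison used 7 of the 30 libraries of the series, 3 of day 21 and 4 of day 14, chosen by their labels. All animals were wild-type adult females. In both groups the nerve had been transected, leaving an 8 mm gap, and a 10 mm chitosan conduit, a hollow guide made of a polysaccharide, was placed 3 months after the injury. Where the delayed change is set against other tissue, 5 libraries of day 21 and 4 of day 14 came from nerves given the same tube at once (immediate repair), 5 and 4 libraries came from day 7 of delayed and immediate repair, and 5 came from healthy control nerve. The labels do not say whether replicates were separate animals or pools, so p-values measure the spread between these samples. They give no batch.

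Regeneration through an empty tube proceeds in stages. A fibrin matrix and inflammatory cells come first, followed by fibroblasts, vessels and Schwann cells that migrate in from both stumps, and then by axons, which Schwann cells go on to ensheathe and myelinate. In a nerve left cut for months, the Schwann cells of the distal stump lose contact with axons for a long time, and their capacity to sustain regrowth is known to decline.

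The 7 libraries held 12628256 to 15808526 counts each, within the range of 11958242 to 17334752 counts over the series. The deposited table lists 32545 Ensembl rat gene IDs without symbols, and 0 of them matched the symbol table at hand. Myelin, Schwann cell and other marker lists could therefore not be applied, the tissue label could not be checked against markers, and genes are described here by their levels in other libraries rather than by name. After removal of genes with low counts, 16015 genes (49.2%) were tested. In bulk tissue, fewer cells of a type and less RNA per cell cannot be told apart.

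One day 21 library stood apart from the others of its label. On the first principal component of log2 CPM (counts scaled to a common library size), which took 28.5% of the variance among the 7 libraries, day 21 replicates 1, 2 and 3 lay at 45.4, 58.5 and -22.5, against -26.7, -31.6, 0.195 and -23.3 for day 14 replicates 1 to 4. Replicate 3 thus lay among the day 14 libraries, while replicates 1 and 2 lay outside their range. The Spearman correlation of replicate 3 was 0.966 with day 21 replicate 1 and 0.964 with day 21 replicate 2. With day 14 replicates 1 to 4 it was 0.977, 0.970, 0.970 and 0.980. A low value within a day was not particular to this library, since day 14 replicates 2 and 3 had 0.960 with each other, the lowest of any pair. The named genes and the main gene sets below are therefore given library by library. No pair of the 7 libraries agreed within sampling noise (lowest chi-square per degree of freedom 25.1), so each was counted as a sample of its own.

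**Figure D1:**
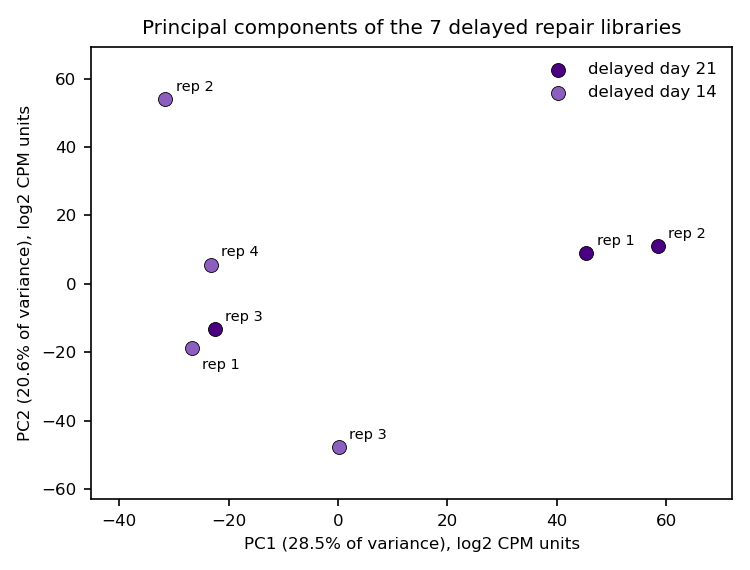
Principal components of log2 CPM over the 7 delayed repair libraries, with PC1 (28.5% of variance) across and PC2 (20.6%) upwards, 1 point per library. Day 21 replicates 1 and 2 lie to the right at 45.4 and 58.5, and day 21 replicate 3 lies at -22.5 among the day 14 libraries.

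No gene passed an adjusted p of 0.05 between day 21 and day 14 of delayed repair in edgeR's quasi-likelihood test, in either direction (0% of the 16015 tested). The smallest adjusted p was 0.136. At an unadjusted p under 0.05, 620 genes (3.87%) differed, of which 477 (2.98%) were higher at day 21 and 143 (0.893%) were lower. A difference of at least 4-fold was seen in 187 of the higher genes and in 53 of the lower. The median log2 fold change was 1.56 among the 477 and -1.41 among the 143, as a description of genes chosen by this same comparison. The higher genes include 28 with no count in any day 14 library and the lower ones 6 with no count in any day 21 library. With these at the bound that 3 counts over the group set, the medians were 1.48 and -1.36.

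The count of genes depended on the tool and on single libraries. DESeq2 called 36 genes (32 higher and 4 lower at day 21, 0.225%), and limma's voom with sample quality weights called 69 (63 higher and 6 lower, 0.431%). Only 8 genes were in both lists, 22.2% of the DESeq2 calls and 11.6% of the voom calls. The edgeR test called 22 genes, all higher (0.134%), without day 21 replicate 3, and 1 without day 21 replicate 2. It called 29, all higher (0.182%), without immediate day 21 replicate 4, a library outside the comparison that enters through the shared estimate of spread. With both day 21 libraries that stood apart in their groups left out, that is delayed replicate 3 and immediate replicate 4, it called 93 (91 higher and 2 lower, 0.57%). When only the 7 compared libraries were fitted, 1 of 14550 genes (0.00687%) was called.

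The precision of the comparison differed between genes. The 95% interval of the log2 fold change had a median half-width of 0.66, and in 54.9% of genes it lay wholly within a 2-fold change either way. The common biological coefficient of variation was 32.5% within delayed day 21 and 28.6% within delayed day 14, against 41.1% over all 30 libraries. For 1126 genes (7.03%) the groups did not overlap. These were split evenly, 559 (3.49%) higher and 567 (3.54%) lower at day 21.

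The genes with the highest counts had a median change close to 0. Over the 68 genes that averaged at least 1000 CPM in the 7 libraries, which took 23.8% to 25.8% of each library, the median log2 fold change was -0.04, and their values ran from -0.90 to 3.45. Of the 68, 5 were higher at day 21 at an unadjusted p under 0.05 and 0 were lower. Over all 16015 tested genes, 477 (2.98%) were higher and 143 (0.893%) lower. The 3 of the 68 that differed by at least 2-fold were also higher at day 21, where 747 of the 16015 tested genes were at least 2-fold higher.

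The 2 largest positive log2 fold changes among the 143 genes that were higher at an unadjusted p, did not overlap and averaged at least a log2 CPM of 1 belonged to genes abundant in healthy nerve. ENSRNOG00000003171 stood at 2304, 2648 and 101 CPM in the day 21 libraries (replicates 1, 2 and 3), against 17.8, 14.3, 58.8 and 11.7 CPM in the day 14 libraries. All 3 day 21 libraries were above all 4 of day 14, and replicate 3 was the lowest of the 3 by far. In control nerve this gene averaged 41188 ± 13928 CPM (SD, n = 5), and at day 7 of delayed repair it lay between 0.375 and 6.62 CPM. In immediate repair it had 8931, 4518, 6947, 15.2 and 10121 CPM in the day 21 libraries, against 4.20, 136, 183 and 335 CPM in the day 14 libraries. In immediate repair 1 day 21 library, replicate 4, lay within the day 14 range, whereas delayed replicate 3 was low but above its day 14 range. The fitted log2 fold change in delayed repair was 6.03 (SE 1.37), and it missed the threshold in edgeR (adjusted p = 0.197). It passed in DESeq2 (adjusted p = 0.000225), in voom (adjusted p = 0.0187) and in edgeR without day 21 replicate 3 (adjusted p = 0.0465).

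ENSRNOG00000015445 was also high in day 21 replicates 1 and 2, at a lower level. It stood at 111, 84.8 and 4.79 CPM in the day 21 libraries, against 1.43, 1.67, 1.91 and 0.797 CPM in the day 14 libraries of delayed repair. The groups did not overlap, and replicate 3 was again closest to day 14. Control nerve averaged 2621 ± 198 CPM (SD, n = 5). Unlike the first gene, it was higher in delayed day 7 tissue, at 2.38 to 21.6 CPM, than in any delayed day 14 library. Day 21 over day 14 gave 5.52 on the log2 scale, with an SE of 1.05 and an adjusted p of 0.136 in edgeR. The gene passed in DESeq2 (adjusted p = 2.86e-06) and in edgeR without day 21 replicate 3 (adjusted p = 0.0110), but not in voom (adjusted p = 0.121). Immediate repair gave 5.41 (SE 0.99), where the gene was called (edgeR adjusted p = 0.0140).

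Of the 43 genes that met the same conditions in the other direction, the 2 with the largest negative values were seen at low levels. ENSRNOG00000026764 had 0, 0.186 and 4.38 CPM in the day 21 libraries, against 14.8, 8.12, 30.6 and 7.85 CPM in the day 14 libraries. Day 21 replicate 3 was nearest to day 14, and the groups did not overlap. The gene had no count in any day 7 library of either repair and at most 2 counts in a control library. The fitted log2 difference was -3.33, with an SE of 1.32 and an edgeR adjusted p of 1. Without day 21 replicate 3 the fitted value was -7.16, which rests on 3 counts in the remaining day 21 libraries (edgeR adjusted p = 0.190).

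ENSRNOG00000018736 had 0.807, 0.559 and 0.616 CPM in the day 21 libraries, against 1.18, 12.3, 3.46 and 4.41 CPM in the day 14 libraries. All 3 day 21 libraries were alike, and the day 14 libraries were widely spread. The other repair groups were widely spread as well. They ran from 1.08 to 16.8 CPM at delayed day 7 and from 1.74 to 9.05 CPM at immediate day 7. Immediate repair gave 0.612 to 8.31 CPM at day 14 and 0.707 to 16.6 CPM at day 21. Control nerve, at 2.40 ± 0.45 CPM (SD, n = 5), lay above the day 21 libraries and within the day 14 range. In delayed repair the gene differed by -2.99 on the log2 scale, with an SE of 1.24 and an edgeR adjusted p of 1, and by -2.18 without day 14 replicate 2. In immediate repair the log2 difference was 0.64 (SE 0.96).

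**Figure D2:**
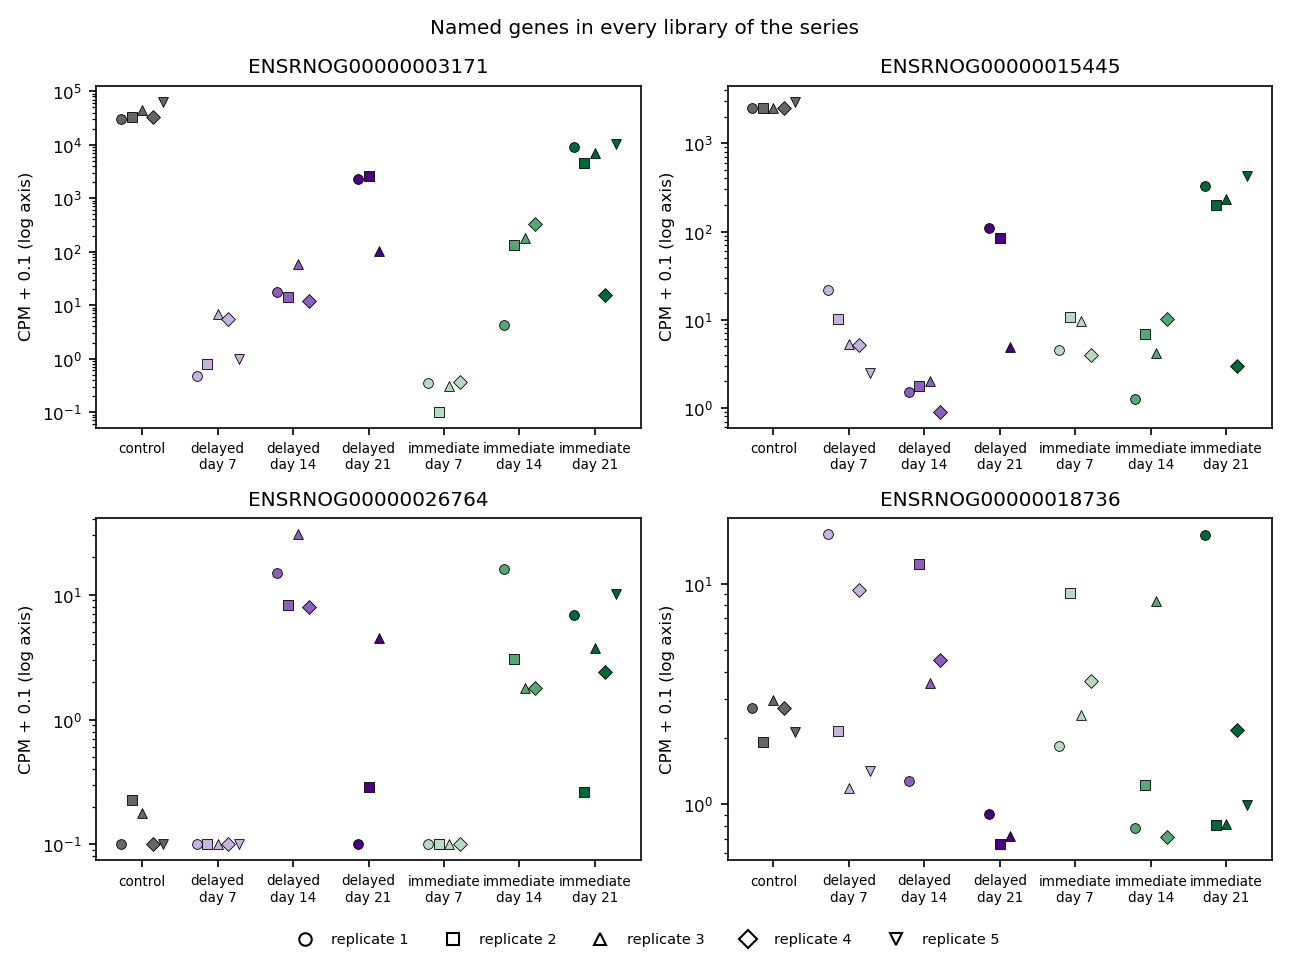
CPM plus 0.1 on a log axis for the 4 named genes, 1 point per library in 7 groups, with marker shape giving the replicate number. In the upper panels the triangle of delayed day 21 (replicate 3) lies at 101 and 4.79 CPM, far below replicates 1 and 2, and the diamond of immediate day 21 (replicate 4) lies at 15.2 and 2.92 CPM.

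Genes that changed over the same days of immediate repair gave a set chosen by a contrast between libraries other than the 7. The 7 libraries entered that choice through the filter and the shared estimate of spread of the 30-library fit, not through the contrast. In immediate repair, 41 of 16015 genes were called, all higher at day 21 (0.256%), by edgeR at an adjusted p under 0.05. That number depended on single libraries, as given in the closing section, being 185 without immediate day 21 replicate 4, 27 without delayed day 14 replicate 4, 0 without any 1 of immediate day 14 replicates 1, 2 and 3, and 0 when only the immediate libraries compared were fitted. In delayed repair all 41 had a positive log2 fold change, with a median of 2.46, against 0.00 over all tested genes, of which 8006 were positive. At an unadjusted p under 0.05, 30 of the 41 (73.2%) were higher and 0 lower, against 2.98% and 0.893% of all tested genes. In 15 of the 41 (36.6%) the day 21 libraries lay above all day 14 libraries, against 3.49% of all tested genes. The positive difference was at least 2-fold in 32 of the 41 and at least 4-fold in 21, against 747 and 248 of the 16015 tested genes. Of the 41, 2 had no count in any day 14 library, and the median stayed at 2.46 with them at their bound. Among the other 39 the log2 fold changes ran from 0.01 to 6.91.

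The difference in these 41 genes lay in day 21 replicates 1 and 2. Their median level was 13.6, 15.1 and 1.58 CPM in day 21 replicates 1, 2 and 3, against 0.682, 0.876, 1.25 and 0.797 CPM in day 14 replicates 1 to 4. Set against the mean of the day 14 libraries gene by gene, the median log2 difference was 2.38, 2.72 and 0.12 in the day 21 libraries, against 0.00, -0.11, 0.32 and -0.19 in the day 14 libraries themselves. All 41 genes in replicate 1 and 39 in replicate 2 were above every day 14 library, and 15 were in replicate 3. Replicate 3 was the lowest of the day 21 libraries in all 41 genes, and in 34.6% of all tested genes. The differences from the day 14 mean in replicates 1 and 2 correlated across the 41 genes with a Spearman rho of 0.964, and those in replicates 1 and 3 with a rho of 0.752. The genes are not independent, and both pairs share the day 14 mean. Without replicate 3 the median over the 41 genes was 2.98, and without replicate 2 it was 1.68.

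All 41 were more abundant in control nerve than at day 14 of delayed repair, a contrast that did not choose the genes, although both groups entered the shared filter and spread. Control nerve was more than 10-fold higher than delayed day 14 in 35 of them and more than 100-fold higher in 25. The same counts over all tested genes are not given here. In immediate day 14 tissue, 4061 of the 16015 tested genes (25.4%) were called lower than control, 534 of them at least 16-fold. A choice by higher values than in immediate day 14 tissue favours genes that are low there. Expressed as a share of the control mean, the median gene stood at 5.76%, 5.39% and 0.567% in delayed day 21 replicates 1, 2 and 3, against 0.275% to 0.590% in the day 14 libraries. At day 7 of delayed repair it was 0.193% to 0.468%, below or within the day 14 range. In immediate day 21 tissue, which chose the genes, it was 18.2%, 11.7%, 14.5%, 0.720% and 22.8% in replicates 1 to 5. In delayed tissue the 41 genes together took 0.266%, 0.261% and 0.0601% of all counts at day 21, against 0.0478% to 0.0675% at day 14, while control libraries gave them 4.13% to 5.31%. Replicate 3 lay within the day 14 range on this measure and the other 2 day 21 libraries lay above it.

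**Figure D3:**
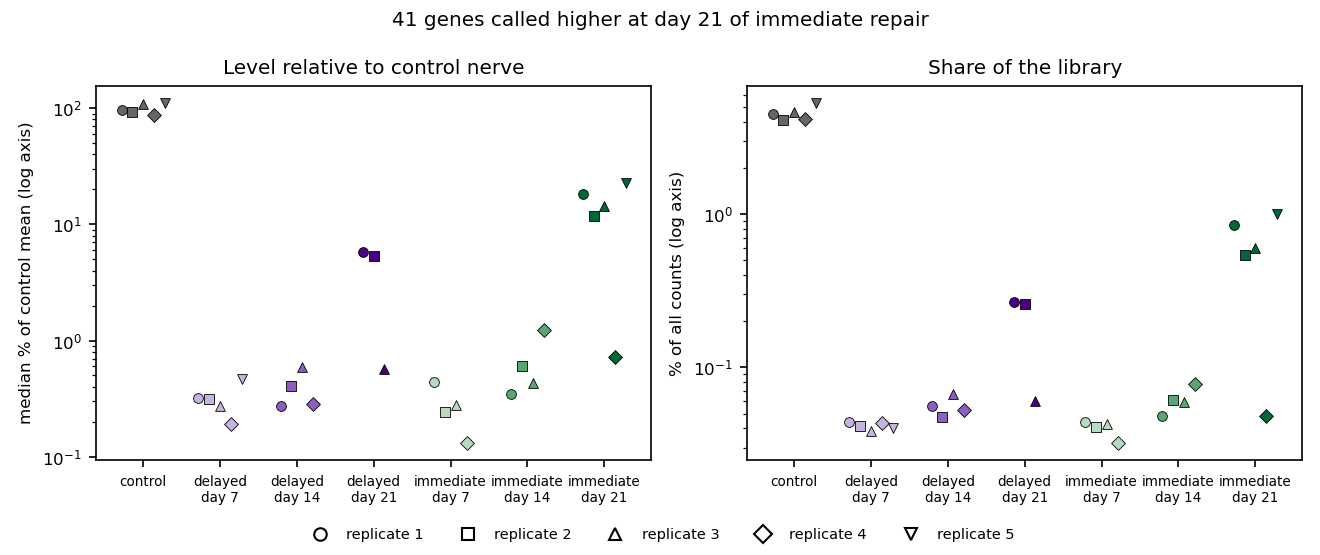
The 41 genes called higher at day 21 of immediate repair, in every library, 1 point each, on log axes. The left panel gives the median level as a percentage of the control mean and the right panel the percentage of all counts. Delayed day 21 replicates 1 and 2 reach 5.76% and 5.39% of control on the left, and replicate 3 stays at 0.567%.

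An interaction contrast tested whether delayed and immediate repair differed in the change over these days. No gene passed (0% of 16015 genes, smallest adjusted p close to 1, edgeR), and 385 genes (2.4%) did so at an unadjusted p under 0.05, 202 (1.26%) with the larger value in delayed repair and 183 (1.14%) with the larger value in immediate repair. DESeq2 called 4, 1 and 3 in those directions, and voom called 0. Across all tested genes the log2 fold changes of delayed and immediate repair, which share no library, correlated with a Pearson r of 0.385 and a Spearman rho of 0.285, as a description across genes that are not independent. For the 41 genes the difference of delayed minus immediate change had a median of -1.17 on the log2 scale and was negative in 35. The genes were chosen for a large immediate change, and that choice favours a negative value. At an unadjusted p under 0.05, 11 of the 41 passed, and 0 passed after adjustment.

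**Figure D4:**
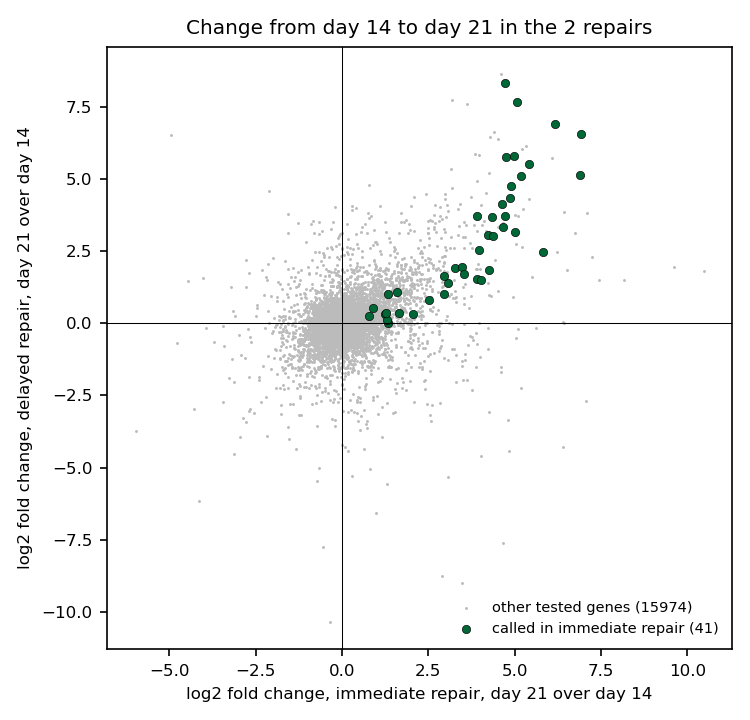
Log2 fold change of day 21 over day 14 in delayed repair (vertical) against immediate repair (horizontal), 1 point for each of 16015 tested genes, with the 41 called in immediate repair in green. All 41 green points lie above 0 on the vertical axis, and over all genes the Pearson r was 0.385.

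A wider set was taken from the contrast of immediate day 14 tissue with control nerve, to which the 7 libraries again gave only a part of the shared filter and spread. The 4061 genes (25.4% of those tested) that were lower there than in control had a median log2 fold change of 0.12 in delayed day 21 over day 14, and 68.5% of them were positive. At an unadjusted p under 0.05, 289 of them (7.12%) were higher and 21 (0.517%) lower at day 21, against 2.98% and 0.893% of all tested genes. These 289 were 60.6% of all 477 genes higher at that threshold. The 4178 genes (26.1%) above control had a median of -0.08, and 36.1% of them were positive. Among these, 37 (0.886%) were higher and 51 (1.22%) lower at an unadjusted p under 0.05, against the same 2.98% and 0.893%. No overlap was found for 294 of the lower genes in the direction of a rise and for 241 of the higher genes in the direction of a fall, 7.24% and 5.77%, against 3.49% and 3.54% of all tested genes.

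The size of the delayed change followed the distance from control in immediate day 14 tissue. For genes under 2-fold, 2- to 4-fold, 4- to 16-fold and at least 16-fold below control (1561, 1054, 912 and 534 genes), the median log2 fold change was 0.06, 0.12, 0.27 and 0.87. The share higher at an unadjusted p under 0.05 was 3.01%, 3.89%, 9.32% and 21.7% in the same classes, against 2.98% of all tested genes, so the class nearest to control was at the level of all genes. For genes above control in the same steps of fold, the medians were smaller and negative, at -0.05, -0.08, -0.13 and -0.19. The share lower at an unadjusted p under 0.05 was 0.755%, 1.41%, 1.39% and 1.69%, against 0.893% of all tested genes. The class nearest to control was below that share and the other classes were above it. Day 21 libraries lay below all day 14 libraries in 4.46%, 7.74%, 6.23% and 4.92%, against 3.54% of all tested genes.

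These classes too separated the day 21 libraries. For the 534 genes at least 16-fold below control, the median log2 difference from the day 14 mean was 0.37, 0.97 and 0.00 in day 21 replicates 1, 2 and 3, against -0.13, 0.00, 0.19 and 0.00 in the day 14 libraries. Replicate 3 lay within the day 14 range and the others above it. For the 912 genes 4- to 16-fold below control the values were 0.30, 0.52 and -0.13 in the day 21 libraries, against -0.17, -0.04, 0.23 and 0.00 in the day 14 libraries. For the 650 genes at least 16-fold above control the values were -0.30, -0.28 and 0.09 in the day 21 libraries, against 0.04, 0.23, -0.30 and 0.04 in the day 14 libraries. On these genes day 14 replicate 3 was as low as day 21 replicates 1 and 2, so the groups overlapped.

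**Figure D5:**
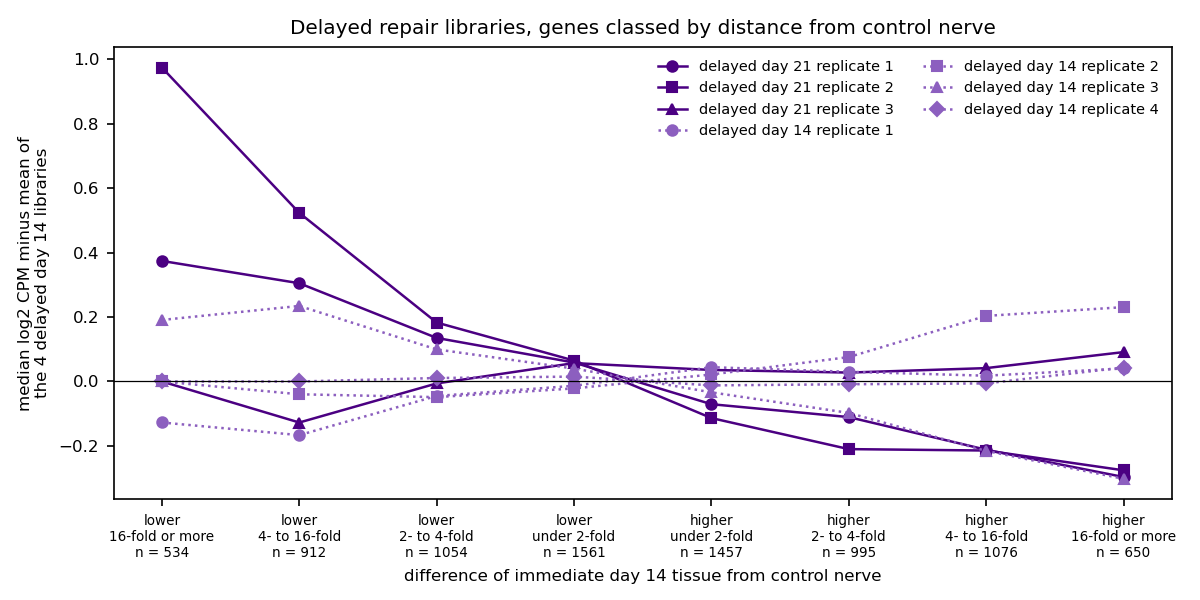
Median log2 CPM of each delayed repair library minus the mean of the 4 delayed day 14 libraries, for 8 classes of genes by how far immediate day 14 tissue lay from control nerve (number of genes under each class). Day 21 replicates 1 and 2 reach 0.37 and 0.97 at the left, in the class at least 16-fold below control, and day 21 replicate 3 stays at 0.00.

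Over all tested genes, likeness to healthy nerve overlapped between the days. The Spearman correlation with the mean control profile was 0.852, 0.865 and 0.813 in day 21 replicates 1, 2 and 3, against 0.817, 0.802, 0.846 and 0.824 in day 14 replicates 1 to 4. The groups overlapped, since day 21 replicate 3 lay below 3 of the 4 day 14 libraries. The means were 0.844 ± 0.027 (SD, n = 3) at day 21 and 0.822 ± 0.018 (SD, n = 4) at day 14. The difference of 0.0215 had a two-sided exact permutation p of 0.286, where the smallest p that 35 arrangements allow is 0.0571. Delayed day 7 libraries had 0.668 to 0.782.

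Genes that had moved between day 7 and day 14 of immediate repair, chosen by another contrast of the same fit, gave small medians. The 3119 genes (19.5%) that rose there had a median log2 fold change of -0.05 in delayed day 21 over day 14, and the 2285 (14.3%) that fell there had 0.06. Of the genes that rose, 2.05% were higher and 6.73% lower at day 21 without overlap, against 3.49% and 3.54% of all tested genes. Of the genes that fell, 4.33% were higher and 1.14% lower without overlap. By library, the genes that rose had 0.00, 0.10 and -0.26 in day 21 replicates 1, 2 and 3, against -0.05, -0.09, 0.17 and -0.01 in the day 14 libraries. The genes that fell had -0.01, -0.08 and 0.23 in day 21, against 0.01, 0.10, -0.12 and 0.01 in day 14. In both sets replicate 3 lay outside the range of the other 6 libraries, in the direction of the day 7 level in immediate repair.

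The 477 genes higher at an unadjusted p were sorted into 2 main kinds by whether they also passed an unadjusted p under 0.05 in immediate repair. Missing that threshold does not show a different change. These genes were chosen by the delayed comparison, so their delayed values are a description. The first kind, 188 genes, was also higher at an unadjusted p in immediate repair, where 5.34% of all tested genes were higher and 2.2% lower (7.54% in all). Their median log2 difference from the delayed day 14 mean was 2.42, 2.51 and 0.30 in day 21 replicates 1, 2 and 3, and replicate 3 was the lowest day 21 library in 168 of them (89.4%). Their median level was 43.6 CPM in control nerve, and 168 of them (89.4%) were called lower than control in immediate day 14 tissue, against 25.4% of all tested genes. A choice by higher values than in immediate day 14 tissue favours genes that are low in those same libraries. The second kind, 284 genes, did not pass an unadjusted p in immediate repair. Of these, 88 passed an unadjusted p under 0.05 in the interaction contrast, where no gene passed after adjustment. Their choice by both comparisons favours such a difference. In the 284 genes the 3 day 21 libraries stood closer together, at 0.76, 0.79 and 0.58. Replicate 3 was the lowest in 129 (45.4%), against 34.6% of all tested genes. In 136 (47.9%) the day 21 libraries lay above all day 14 libraries, against 3.49% of all tested genes. A choice by an unadjusted p in this same comparison favours genes whose libraries of a day agree. Closeness and lack of overlap are thus in part built in. At their median level these genes were expressed at 21.4 CPM in control and 16.6 CPM at delayed day 7, and 121 of them (42.6%) were called lower than control in immediate day 14 tissue. The other 5 were lower at an unadjusted p in immediate repair.

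One gene of the second kind was the single call when only the 7 libraries were fitted, and it is described here because it was that call. It had 16.7, 23.5 and 34.9 CPM in day 21 replicates 1, 2 and 3, against 1.74, 1.43, 1.02 and 2.15 CPM in day 14 replicates 1 to 4. All day 21 libraries were above all day 14 libraries, and replicate 3 was the highest. The log2 fold change was 3.97 (edgeR adjusted p = 0.0264 in that fit). The single call without day 21 replicate 2 was another gene, with 37.1, 0.745 and 1.44 CPM in day 21 replicates 1, 2 and 3, against 1.36, 0.478, 0.896 and 0.674 CPM in day 14 replicates 1 to 4 (edgeR adjusted p = 0.0121 in that fit). Only replicate 1 was high in it.

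In the 143 genes lower at an unadjusted p, day 21 replicate 3 did not stand apart in the median. Of these, 22 were also lower in immediate repair, 4 were higher there and 117 did not pass. By library their median log2 difference from the day 14 mean was -1.09, -0.94 and -0.92 in day 21 replicates 1, 2 and 3, so that all 3 libraries were about equally low. The genes were chosen by this same comparison, which favours genes low in all 3 day 21 libraries, so these values are a description. The median level was 1.59 CPM at day 21 of delayed repair, against 6.28 CPM at day 14. Of the 22 lower in both repairs, 18 (81.8%) were called above control in immediate day 14 tissue, against 26.1% of all tested genes. The same immediate day 14 libraries enter the choice of the 22 and favour this direction.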

How the data were processed

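The authors deposited 1 table of unnormalized read counts, with a column for each of 30 libraries. Per the labels' protocols, poly(A) libraries without strand marking were made from 400 ng of RNA with an integrity number above 6, so reads of overlapping or antisense genes cannot be told apart. HISAT2 2.0.5 and featureCounts 1.5.0-p3 are named in the submitters' processing notes, as is DESeq2 1.38.3. The genome build is not given in the sources used here, nor is the handling of reads that match near-identical genes, so genes with such copies are uncertain. Of the listed IDs, 8248 had no count in any library.

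The main test used edgeR 4.0.16 in R 4.3.3. The steps were filterByExpr by group (minimum count 10), TMM scaling, 1 fit of 7 groups over all 30 libraries, the robust quasi-likelihood test, and Benjamini-Hochberg adjustment over 16015 genes with a threshold of 0.05. All groups share 1 estimate of spread. Standard errors and 95% intervals come from the test statistic. Medians of log2 CPM use a prior count of 2. The test was also run on counts simulated from the means and spread of this fit, and that outcome is not given here. Counting error adds most to genes near the filter.

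Alternatives were DESeq2 1.42.0 (no adjusted p for 187 genes), voom in limma 3.58.1, other scaling, no filter, smaller fits, a replicate block and leaving out libraries. The members and lists were chosen with earlier results of these data known. The rule for named genes took the largest log2 fold changes among genes with an unadjusted p under 0.05 (none passed after adjustment), a mean log2 CPM of at least 1 and no overlap. It asked for symbols and allows 2 IDs in each direction without them. The sets from immediate repair and the classes of distance from control were added after seeing the data.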

Additional observations from a re-analysis of the deposited data

Results flagged for a closer look

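For the 4 named genes and the measures given per library, 42 groups of 4 or 5 samples were searched for a sample far from the others, and 5 had one. Chance gives about 1 in 20 such groups where values are normally distributed and the groups independent. The CPM values were not on a log scale, all 5 samples lay on the high side, and groups shared libraries. The count of 5 therefore cannot be set against that rate. ENSRNOG00000003171 had 58.8 CPM in delayed day 14 replicate 3, against 11.7 to 17.8 CPM in the other 3 libraries of that group. ENSRNOG00000015445 had 2975 CPM in control replicate 5, against 2523 to 2541 CPM in the other controls. ENSRNOG00000026764 had 16.1 CPM in immediate day 14 replicate 1, against 1.68 to 2.95 CPM. ENSRNOG00000018736 had 8.31 CPM in immediate day 14 replicate 3, against 0.612 to 1.13 CPM, and 16.6 CPM in immediate day 21 replicate 1, against 0.707 to 2.07 CPM. The delayed day 21 group has 3 libraries and could not be searched in this way.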

How the results depend on the processing

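The number of genes called between delayed day 21 and day 14, 0 in edgeR, was 36 in DESeq2, 69 in voom, 1 with only the compared libraries and 93 when day 21 replicates 3 (delayed) and 4 (immediate) were both left out. It was 0 under scaling by relative log expression, with no filter and with the 16 libraries of days 14 and 21. Leaving out each of the 30 libraries in turn gave 0 to 29. In immediate repair the count of 41 was 153 in DESeq2, 170 in voom, 26 without the filter, 0 with only the compared libraries, 0 with the 16 libraries and 207 without the 2 libraries named. Leaving out 1 library gave 0 to 185, with 25 without any 1 of control replicates 1 to 4, 27 without delayed day 14 replicate 4, 15 without immediate day 14 replicate 4, 21 without immediate day 21 replicate 1 or 3, and 12 without its replicate 5. The interaction had 0 calls, 4 in DESeq2, and 0 to 0 when 1 library was left out. The cause of these differences was not tested.

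Same-numbered libraries of delayed day 21 and day 14 deviated together with correlations of 0.161, 0.045 and -0.10. Libraries with different numbers gave -0.230 to 0.181. The same-numbered values lay within that range, but 3 such values cannot settle whether the numbers pair the samples. The replicate block gave 0 calls in delayed repair, 0 in immediate repair and 0 for the interaction.

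The 4 named genes kept their sign in all 38 alternatives. They were chosen for large changes with no overlap between the days, so leaving out a library could hardly reverse a sign. The kept sign is therefore no test of these genes. ENSRNOG00000003171 also passed without immediate day 21 replicate 4 (edgeR adjusted p = 0.0138), as did ENSRNOG00000015445 (edgeR adjusted p = 0.00234). The median of the 41 genes was 1.68 to 2.98 over 13 alternatives. Genes below control had a median of 0.07 to 0.14 when 1 library was left out and 0.38 when only those at least 4-fold below were taken. Genes above control had -0.16 to -0.04. The difference in correlation with control ran from 0.00891 to 0.0367, with the same direction in 9 alternatives.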
